A study of Mus musculus with 15 samples.

Results

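The CDK inhibitor genes described here are *Cdkn2a*, *Cdkn2b*, *Cdkn2c*, *Cdkn2d*, *Cdkn1a*, *Cdkn1b* and *Cdkn3*. They were chosen by name, and all 7 were among the 17454 genes with a value in 15 RNA-seq libraries of mouse yolk sac (YS) erythro-myeloid progenitors (EMPs).

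Proteins of the Ink4 family, encoded by *Cdkn2a* to *Cdkn2d*, bind the kinases CDK4 and CDK6 and keep them from their D-type cyclins. Proteins of the Cip/Kip family, among them those encoded by *Cdkn1a* and *Cdkn1b*, bind whole cyclin-CDK complexes, and the phosphatase encoded by *Cdkn3* removes an activating phosphate from CDKs. Polycomb repressive complex PRC2, whose catalytic subunit is EZH2, trimethylates histone H3, and *Cdkn2a* and *Cdkn2b* are among its classical targets in many cell types.

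EMPs are a first wave of definitive progenitors, which leave the endothelium of the YS and give rise to red cells, megakaryocytes and myeloid cells. Here they were sorted at E10.5 from C57BL/6 embryos as LIN-negative, SCA1-negative cells positive for KIT, CD41 and CD16/32, with each library made from 1 YS. All embryos carried floxed *Ezh2* on both alleles (Ezh2fl/fl). Tie2-Ezh2-KO (n = 5) also carried 1 copy of Tie2-Cre, which acts in endothelium and so in the cells that EMPs arise from, and Vav-Ezh2-KO (n = 5) carried 1 copy of Vav-Cre, which acts in hematopoietic cells. The controls were Ezh2fl/fl embryos without Cre, 3 Tie2-Ezh2-WT and 2 Vav-Ezh2-WT, and they are called WT where all 5 are used. Both knockouts were compared with these same 5 WT libraries, so the comparisons share their controls. With the knockouts side by side, the design compares deletion of *Ezh2* from the endothelial stage on with deletion from the hematopoietic stage on.

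Levels are given as RPKM (reads on a gene, scaled to its length in kilobases and to the reads on all genes), a scale on which genes of different lengths can be compared. The reads behind each value were recovered from the steps between low values. Reads on genes ranged from 10407398 to 41025074 in WT, from 14818723 to 26825709 in Tie2-Ezh2-KO and from 11506895 to 28714656 in Vav-Ezh2-KO libraries. Since several reads may be PCR copies of 1 molecule, floors set from read counts cover counting error only. Sorted cells were measured in bulk, in which fewer cells that use a gene and less RNA per cell cannot be told apart.

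*Ezh2* itself was at 36.9, 39.5 and 30.1 RPKM in Tie2-Ezh2-WT and at 42.0 and 41.5 RPKM in Vav-Ezh2-WT libraries. It was at 27.8, 26.2, 24.8, 29.5 and 26.5 RPKM in Tie2-Ezh2-KO, and at 33.7, 42.4, 37.8, 38.1 and 34.0 RPKM in the libraries labelled Vav-Ezh2-KO. All 5 Tie2-Ezh2-KO libraries were below all WT libraries, whereas of the libraries labelled Vav-Ezh2-KO 4 lay within the WT range and replicate 9 above it. The Tie2-Ezh2-KO mean was lower than WT by a log2 difference of -0.48 (SE 0.12, limma adjusted p = 0.0418, n = 5 and 5), a call that 11 of 22 alternatives did not keep. Among these, the limma adjusted p was 0.0760 without Tie2-Ezh2-WT replicate 4, 0.114 without 10, 0.126 without Vav-Ezh2-WT replicate 4 and 0.111 without 6. It was 0.0802, 0.0976 and 0.0939 without Tie2-Ezh2-KO replicate 7, 11 or 17. With eBayes without trend it was 0.0923, and the limma-voom adjusted p was 0.0817. With the WT of the same cross only, the log2 difference was -0.39 and the limma adjusted p 0.344. These are totals over all exons, from which the deleted exons cannot be told apart, so the value speaks neither for nor against the label of Vav-Ezh2-KO.

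The label of the cells was checked against markers. All 10 EMP markers had reads, with sums of 607.0 to 774.7 RPKM in WT, 682.4 to 805.4 in Tie2-Ezh2-KO and 590.8 to 822.8 in Vav-Ezh2-KO, and *Gfi1b*, a repressor of erythroid and megakaryocytic genes, was the most abundant by the mean over all 15 libraries. In Vav-Ezh2-KO alone the mean of *Gata1* was higher than that of *Gfi1b* (185.1 against 177.0 RPKM). Megakaryocyte markers summed to 130.2 to 340.7 RPKM, macrophage markers to 65.1 to 157.7 RPKM with *C1qa* at 0 in every library, endothelial markers to 22.8 to 46.8 RPKM and mesenchymal markers to at most 1.71 RPKM.

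Markers of 2 other cell types differed between libraries. The 8 visceral endoderm markers, with *Apoa1* the most abundant by the mean over all libraries and *Foxa2* at 0 in both libraries that stood apart, summed to 117.9 RPKM in Tie2-Ezh2-WT replicate 4 and to 169.2 RPKM in Tie2-Ezh2-KO replicate 7, and to between 0.769 and 9.84 RPKM in the other 13 libraries. In Tie2-Ezh2-WT replicate 4 *Afp* was at 48.2 RPKM and *Apoa1* at 47.6. The 6 primitive erythroid markers, with *Hbb-bh1* the most abundant by the same mean, summed to 71.9 to 151.1 RPKM in WT, in Tie2-Ezh2-KO to 317.7 (replicate 7), 590.2 (9), 864.6 (11), 199.6 (13) and 291.3 RPKM (17), and to 65.7 to 159.2 RPKM in Vav-Ezh2-KO. The mean of *Hba-x* was 1.36 RPKM in WT and 166.5 in Tie2-Ezh2-KO, and in replicate 9 of the latter it exceeded *Hbb-bh1* (305.4 against 276.5 RPKM). Of these 6, *Hba-x* and *Hbb-bh1* passed the threshold in Tie2-Ezh2-KO (2.73% of all genes tested did), and *Slc4a1*, the anion exchanger of red cells, was at 0 in WT and Vav-Ezh2-KO and at no more than 0.386 RPKM in Tie2-Ezh2-KO. The call of *Hbb-bh1* (limma adjusted p = 0.0441) was lost in 14 of 22 alternatives and that of *Hba-x* in 1, limma-voom. With 1 library left out, the former held only without Tie2-Ezh2-KO replicate 13 (0.0248) or 17 (0.0295), against up to 0.101 without Vav-Ezh2-WT replicate 4.

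Some markers of the other lists passed too, to be read against the same share, and the 2 named here were chosen after their values were seen. Of the visceral endoderm markers 1 passed, *Amn*, a receptor subunit for vitamin B12 uptake, at 1.52 to 4.66 RPKM in all 5 Tie2-Ezh2-KO libraries, at most 0.798 in WT and at most 0.176 in Vav-Ezh2-KO (limma adjusted p = 0.00155 against WT), and all 22 alternatives kept this call. Of the megakaryocyte markers 1 passed, the platelet glycoprotein gene *Gp1ba*, lower in Tie2-Ezh2-KO (4.06 against 8.11 RPKM, limma adjusted p = 0.0495). Its call was lost in 14 of 22 alternatives, and with 1 library left out it held only without Tie2-Ezh2-WT replicate 12 (0.0174) or Tie2-Ezh2-KO replicate 13 (0.0382), against up to 0.146 without Vav-Ezh2-WT replicate 4. The part of these cells in the results was not tested.

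None of the 7 CDK inhibitors passed the threshold (limma adjusted p under 0.05) in Tie2-Ezh2-KO against WT, where 386 of 14154 genes (2.73%) did. At an unadjusted p under 0.05 there were 2, *Cdkn2a* and *Cdkn2c*, against 11% of all genes tested, and limma-voom on the recovered reads also called 0. The libraries of Tie2-Ezh2-KO were all above all WT libraries for 1 of the 7, *Cdkn2a*, against 3.29% of all genes tested. All 7 passed the filter of 0.2 RPKM in at least 1 library, but *Cdkn2a* and *Cdkn2b* passed it only through the Tie2-Ezh2-KO group, so that they had to differ in this direction. The other 5 had a median difference of 0.0028 on the log2(RPKM + 0.2) scale, and all genes tested one of 0.01.

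In Vav-Ezh2-KO against WT, 1 of 13646 genes (0.00733%) passed the threshold, and it was not a CDK inhibitor. *Cdkn2a* and *Cdkn2b* had 0 reads in both groups and were not tested, and of the other 5 none had an unadjusted limma p under 0.05 (7.93% of all genes tested did) or was called by limma-voom. Between the knockouts, 495 of 14120 genes (3.51%) differed and none of the 7 did, with 2 of them, again *Cdkn2a* and *Cdkn2c*, at an unadjusted p under 0.05, against 16.6% of all genes tested, and 0 called by limma-voom. *Cdkn2a* was again the 1 member without overlap, against 3.56% of the genes tested. With 0 reads in Vav-Ezh2-KO it could only lie above, so nothing is read from this count or from its unadjusted p. When each knockout was set against the WT of its own cross, the 2 effects differed past the threshold for 26 of 14394 genes (0.181%) and for none of the 7. Of the 7, 3 had an unadjusted p under 0.05 in it, *Cdkn2a*, *Cdkn2c* and *Cdkn1a*, against 6.54% of all genes tested, and limma-voom called 0. With 0 reads in WT and Vav-Ezh2-KO, *Cdkn2a* could only be higher in Tie2-Ezh2-KO, so nothing is read from its p here.

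**Figure D1:**
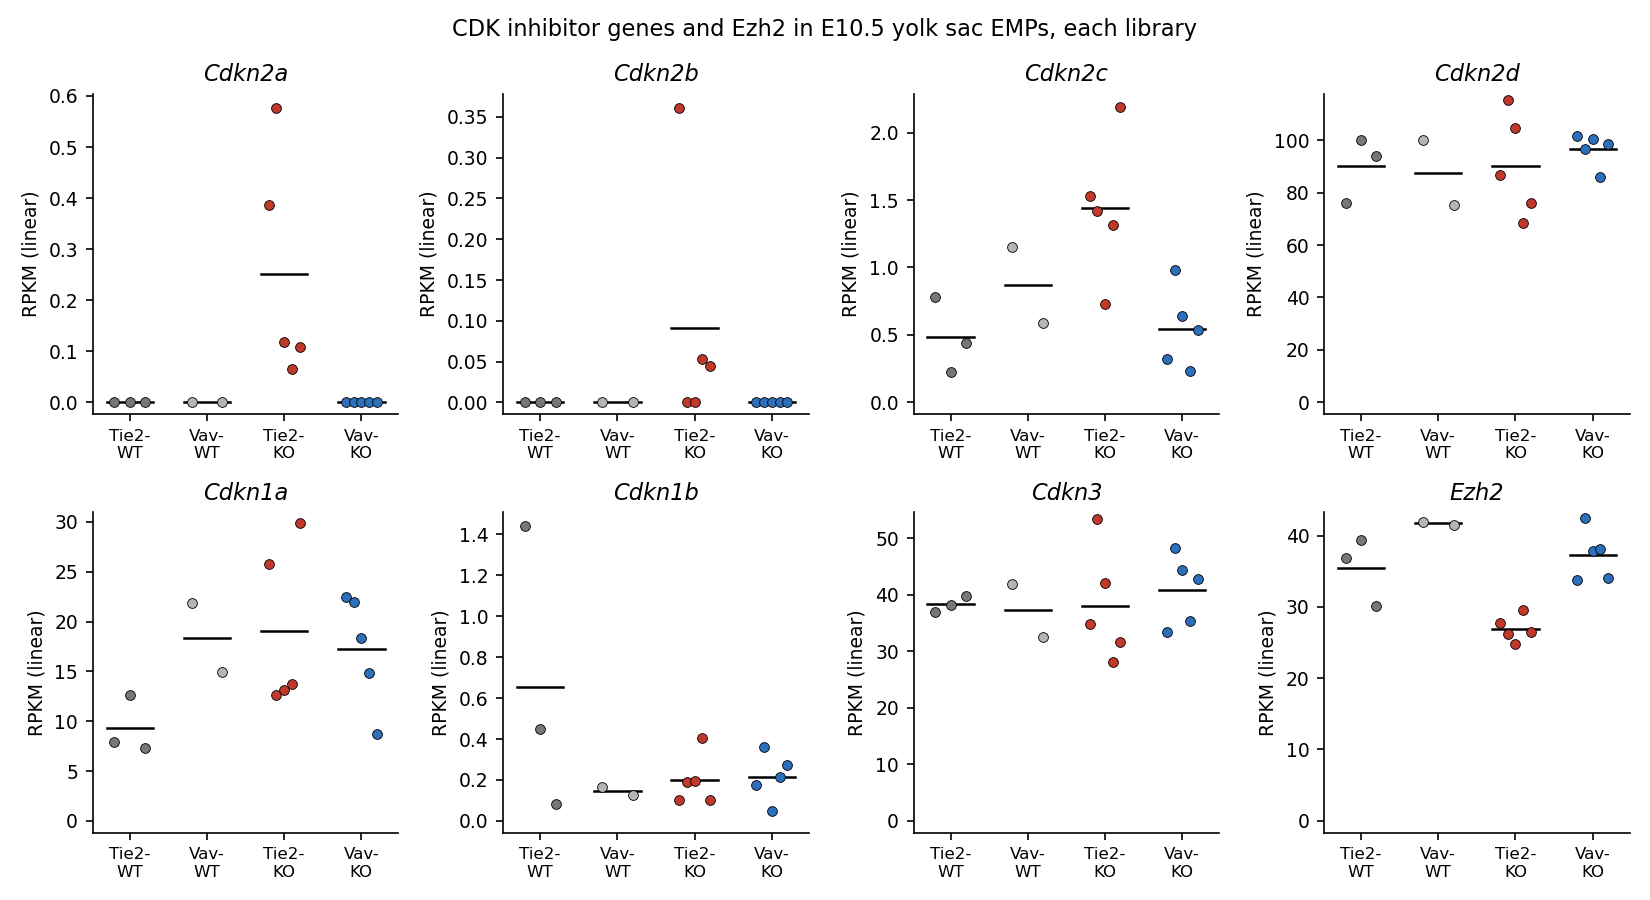
RPKM on a linear scale (vertical axes, each from 0) of the 7 CDK inhibitor genes and *Ezh2* in each of the 15 libraries, with 1 point per library, the mean of each of the 4 groups as a line, and no error bars. *Cdkn2a* and *Cdkn2b* have points above 0 only in Tie2-Ezh2-KO, the *Ezh2* points of Tie2-Ezh2-KO all lie below those of the other groups, and the groups overlap for *Cdkn2d* and *Cdkn3*.

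*Cdkn2a* encodes 2 proteins from different first exons, the CDK inhibitor INK4A and the p53 activator ARF. It lies on chromosome 4 from 89274473 to 89294619 (GRCm38, minus strand). Both transcripts share later exons, and the value of the gene does not tell them apart.

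*Cdkn2a* had 0 reads in all 5 WT libraries and in all 5 libraries labelled Vav-Ezh2-KO. In Tie2-Ezh2-KO replicates 7, 9, 11, 13 and 17 it had 7, 10, 2, 2 and 2 reads, or 0.387, 0.576, 0.119, 0.0656 and 0.109 RPKM. Replicates 7 and 9 were high, the other 3 were near the limit of detection, and no Tie2-Ezh2-KO library overlapped the other groups. The WT libraries together held 102092929 reads on genes and those of Tie2-Ezh2-KO 88955403.

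Over the group and per read sequenced, the 23 reads of Tie2-Ezh2-KO were 8.80 times the 3-read floor of WT and 8.94 times that of Vav-Ezh2-KO. These folds take the 23 reads as exact and allow for counting error in the group at 0 only, so they are no lower bounds. The fold over the WT floor was 7.46 without replicate 7, the library with visceral endoderm markers. It was 6.01 without replicate 9, where these markers summed to 7.08 RPKM. In a two-sided exact permutation test of 5 against 5 libraries, p was 0.00794 against WT and against Vav-Ezh2-KO, the smallest that 252 divisions can give, and 21 such tests were made over the members without adjustment. With 0 reads in WT and Vav-Ezh2-KO, the gene passed the filter through Tie2-Ezh2-KO alone and could differ in this direction only. The folds and p-values of this paragraph are therefore given as a description. The limma difference against WT was 1.04 on the log2(RPKM + 0.2) scale (SE 0.31, 95% CI 0.38 to 1.71, adjusted p = 0.108), which depends on the pseudocount and is no bound. It passed the threshold with a pseudocount of 0.05 (2.28, adjusted p = 0.0433) and with all 15 libraries in 1 fit (1.04, adjusted p = 0.0300), and over all alternatives the adjusted p ranged from 0.0300 to 0.397. Against Vav-Ezh2-KO the difference was 1.04 (SE 0.31, adjusted p = 0.0841), and the same 2 settings brought it past the threshold (adjusted p = 0.0351 and 0.0269). In the test of the difference between the knockout effects it was 1.04 (95% CI 0.05 to 2.04, limma adjusted p = 0.714).

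*Cdkn2b* encodes INK4B and lies 11.7 kb further on, from 89306289 to 89311032 on the same strand. It had 0 reads in all WT libraries and in all libraries labelled Vav-Ezh2-KO. In Tie2-Ezh2-KO replicates 7, 9, 11, 13 and 17 it had 8, 0, 0, 2 and 1 reads, or 0.360, 0, 0, 0.0535 and 0.0446 RPKM. Replicate 7 alone was well above 0, and 2 of the 5 libraries were at 0 as in WT.

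The 11 reads of *Cdkn2b* in Tie2-Ezh2-KO, taken as exact, were 4.21 times the WT floor per read sequenced. Without replicate 7 only 3 reads remained and no fold is given. Replicate 7 also stood out in visceral endoderm markers, and whether these cells gave the reads was not tested. The exact permutation p was 0.167, and the limma difference was 0.42 on the log2(RPKM + 0.2) scale (SE 0.29, adjusted p = 0.750). Without replicate 7 the gene did not pass the filter on low values. An antisense RNA annotated by RefSeq as *Gm12610* spans *Cdkn2b*, and reads of either strand cannot be told apart with this kit.

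**Figure D2:**
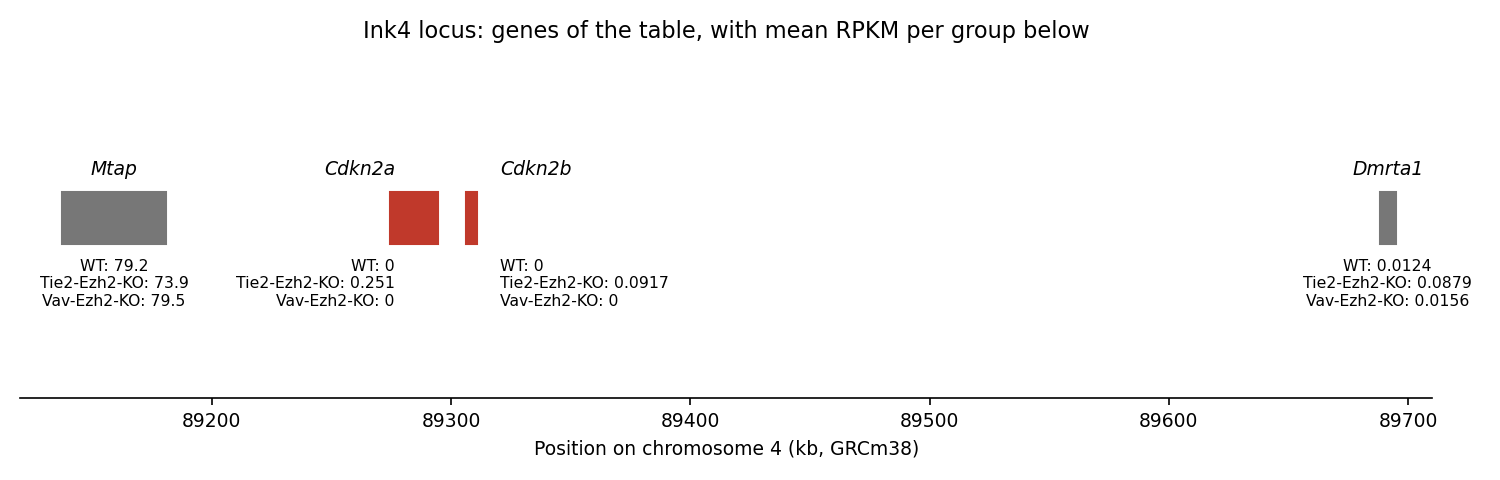
Map of the Ink4 locus, with position on chromosome 4 in kb (GRCm38) on the horizontal axis, boxes for the spans of 4 genes of the table drawn to scale, and mean RPKM per group (n = 5 each) below each box. *Cdkn2a* and *Cdkn2b* (red) have a mean above 0 in Tie2-Ezh2-KO alone, and the neighbor *Mtap* is between 73.9 and 79.5 RPKM in the 3 groups.

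The genes of the table on either side of the locus are *Mtap*, a methylthioadenosine phosphorylase of the methionine salvage pathway, and *Dmrta1*, a gene of the doublesex-related family. *Mtap* was at 79.2 ± 5.22 RPKM in WT and 73.9 ± 5.91 in Tie2-Ezh2-KO (SD, n = 5), a log2 difference of -0.10 (limma adjusted p = 0.864). *Dmrta1* had 4 reads over WT, 27 over Tie2-Ezh2-KO in 3 of 5 libraries and 9 over Vav-Ezh2-KO, and the adjusted limma p against WT was 0.801. The genes nearest to the other members were *Rnf11* and *Faf1* (*Cdkn2c*), *Kri1* and *Ap1m2* (*Cdkn2d*), *Gm16197* and *Rab44* (*Cdkn1a*), *2810454H06Rik* and *1190002F15Rik* (*Cdkn1b*), and *Bmp4* and *Cnih* (*Cdkn3*). Of the 12 genes beside members that are not members themselves, 1 passed in Tie2-Ezh2-KO against WT, the growth factor gene *Bmp4* (3.72 against 0.251 RPKM, limma adjusted p = 0.00216), which lies 369791 bases from *Cdkn3*. Of all genes tested, 2.73% passed.

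*Cdkn2c*, which encodes INK4C, lies on the same chromosome from 109660876 to 109666756, 20.3 Mb from *Cdkn2b*. It was at 0.782, 0.229 and 0.441 RPKM in Tie2-Ezh2-WT and at 1.15 and 0.589 RPKM in Vav-Ezh2-WT libraries. In Tie2-Ezh2-KO it was at 1.53, 1.42, 0.732, 1.31 and 2.19 RPKM, and in the libraries labelled Vav-Ezh2-KO at 0.320, 0.982, 0.644, 0.236 and 0.535 RPKM. Of the Tie2-Ezh2-KO libraries 4 were above every WT and Vav-Ezh2-KO library, and replicate 11 fell among them.

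The mean of *Cdkn2c* was 1.44 ± 0.522 RPKM in Tie2-Ezh2-KO, 0.639 ± 0.352 in WT and 0.543 ± 0.294 in Vav-Ezh2-KO (SD, n = 5), from 12 to 39, 4 to 20 and 3 to 20 reads per library. The level in Tie2-Ezh2-KO was 2.25 times that in WT and 2.65 times that in Vav-Ezh2-KO. The difference from WT was 1.01 on the log2(RPKM + 0.2) scale (SE 0.35, 95% CI 0.25 to 1.76, limma adjusted p = 0.207), with an exact permutation p of 0.0238, and it missed the threshold in all 22 alternatives. Against Vav-Ezh2-KO it was 1.17 (SE 0.34, limma adjusted p = 0.0757, exact permutation p = 0.0159). This passed with array weights (1.32, adjusted p = 0.0370) and without Tie2-Ezh2-KO replicate 11 (1.35, adjusted p = 0.0491), and the adjusted p ranged up to 0.172 over all alternatives. In Vav-Ezh2-KO against WT the difference was -0.16 (SE 0.36, limma adjusted p = 0.930), and against Vav-Ezh2-WT alone it was -0.57 (SE 0.44, limma adjusted p = 0.869). The difference between the knockout effects was 1.84 (SE 0.60, 95% CI 0.58 to 3.11, limma adjusted p = 0.410).

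*Cdkn2d*, which encodes INK4D, lies on chromosome 9 from 21288459 to 21291421 and was the most abundant of the 7. It was at 76.0, 100.1 and 93.9 RPKM in Tie2-Ezh2-WT, at 100.3 and 75.2 in Vav-Ezh2-WT, at 86.6, 115.6, 104.6, 68.5 and 76.0 in Tie2-Ezh2-KO, and at 101.5, 96.5, 100.6, 85.9 and 98.6 in the libraries labelled Vav-Ezh2-KO. The groups overlapped throughout, with the widest spread in Tie2-Ezh2-KO. The log2 difference from WT was 0.00 in Tie2-Ezh2-KO (95% CI -0.32 to 0.32, limma adjusted p = 0.999) and 0.13 in Vav-Ezh2-KO (95% CI -0.09 to 0.34, adjusted p = 0.781), and the sign of the former turned in 9 of 22 alternatives, quantile normalization among them. From 1005 to 4894 reads stood behind each value.

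**Figure D3:**
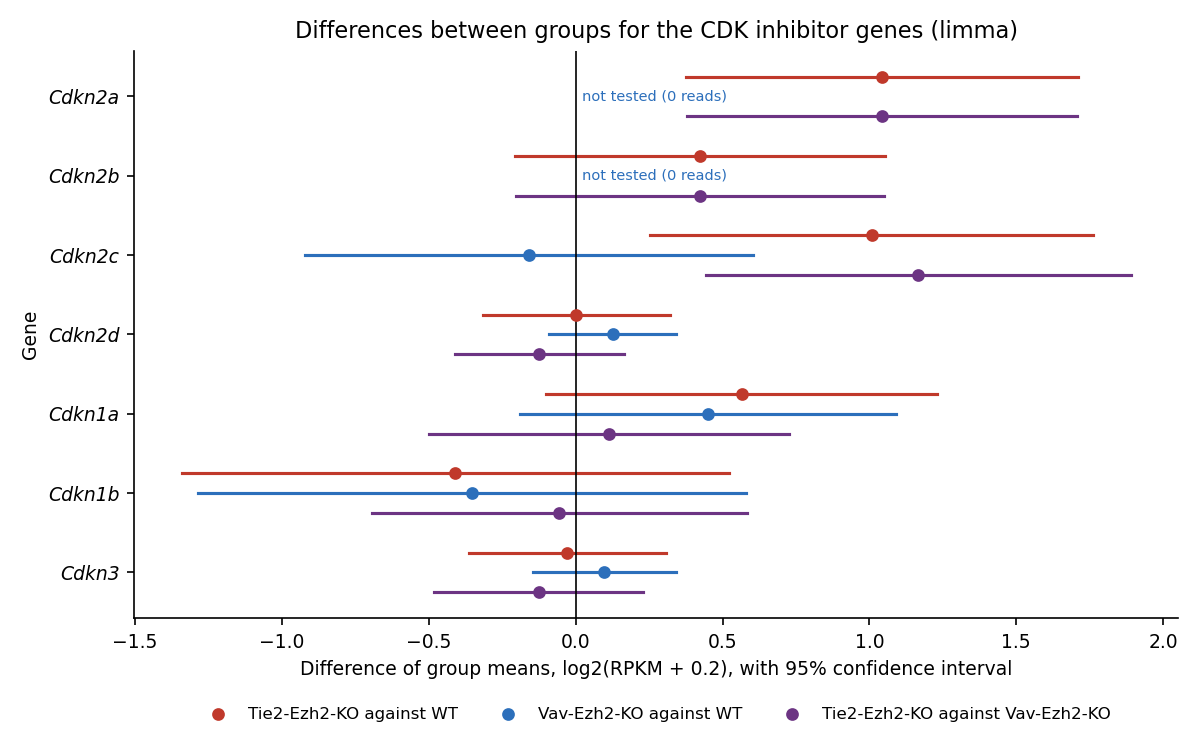
Difference between group means on the log2(RPKM + 0.2) scale (horizontal axis) for each of the 7 genes (vertical axis), with a point for the limma estimate and a line for its 95% confidence interval, in 3 comparisons of 5 against 5 libraries. The intervals of *Cdkn2a* and *Cdkn2c* lie above 0 in both comparisons of Tie2-Ezh2-KO before adjustment for 14154 or 14120 tests, and all other intervals include 0. *Cdkn2a* had 0 reads in WT and Vav-Ezh2-KO, so its difference could only be positive and depends on the pseudocount.

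*Cdkn1a* encodes p21, the Cip/Kip inhibitor that p53 induces, and lies on chromosome 17 from 29090979 to 29100722 (plus strand). It was at 7.92, 12.7 and 7.33 RPKM in Tie2-Ezh2-WT and at 21.8 and 14.96 RPKM in Vav-Ezh2-WT. In Tie2-Ezh2-KO it was at 25.8, 12.6, 13.1, 13.8 and 29.9 RPKM, and in the libraries labelled Vav-Ezh2-KO at 22.5, 21.9, 18.3, 14.9 and 8.73 RPKM. Replicates 7 and 17 of Tie2-Ezh2-KO were high, the other 3 lay within the WT range, and both Vav-Ezh2-WT libraries were above all 3 Tie2-Ezh2-WT libraries.

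The result for *Cdkn1a* depended on which WT libraries were used. Vav-Ezh2-WT against Tie2-Ezh2-WT, 2 against 3 libraries, gave an exact permutation p of 0.2, where 0.1 is the smallest possible. Against all 5 WT libraries, Tie2-Ezh2-KO was higher by 0.56 (SE 0.31, limma adjusted p = 0.602, exact permutation p = 0.175) and Vav-Ezh2-KO by 0.45 (SE 0.30, limma adjusted p = 0.721, exact permutation p = 0.246) on the log2(RPKM + 0.2) scale. Against the WT of their own cross, the differences were 0.96 (SE 0.31, limma adjusted p = 0.229) in Tie2-Ezh2-KO and -0.14 (SE 0.31, limma adjusted p = 0.933) in Vav-Ezh2-KO. The smallest exact permutation p is 0.0179 for 5 against 3 and 0.0476 for 5 against 2 libraries, and the values were 0.107 and 0.810. The knockouts themselves differed by 0.11 (SE 0.29, limma adjusted p = 0.893), and the difference between their effects was 1.10 (SE 0.50, 95% CI 0.05 to 2.15, limma adjusted p = 0.714). Without both libraries with visceral endoderm markers, the difference of Tie2-Ezh2-KO from WT was 0.29 (limma adjusted p = 0.872, the highest over all alternatives, with 0.229 the lowest).

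*Cdkn1b* encodes p27, a Cip/Kip inhibitor controlled largely through its degradation, and lies on chromosome 6 from 134920401 to 134925525. It was low, with 2 to 36 reads per library. It was at 1.44, 0.447 and 0.0811 RPKM in Tie2-Ezh2-WT, at 0.168 and 0.125 in Vav-Ezh2-WT, at 0.104, 0.190, 0.196, 0.403 and 0.103 in Tie2-Ezh2-KO, and at 0.177, 0.361, 0.0493, 0.217 and 0.275 in the libraries labelled Vav-Ezh2-KO. Tie2-Ezh2-WT replicate 4, the WT library with visceral endoderm markers, stood above all others, and the groups overlapped. The log2 difference from WT was -0.41 (SE 0.44, limma adjusted p = 0.885) in Tie2-Ezh2-KO and -0.35 (SE 0.44, adjusted p = 0.860) in Vav-Ezh2-KO. Against Tie2-Ezh2-WT alone the former was -0.79 (SE 0.51, limma adjusted p = 0.931). Without Tie2-Ezh2-WT replicate 4 it was 0.01 (adjusted p = 0.997) and the latter 0.06.

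*Cdkn3* lies on chromosome 14 from 46760461 to 46771530. It was at 37.0, 38.2 and 39.8 RPKM in Tie2-Ezh2-WT, at 42.0 and 32.6 in Vav-Ezh2-WT, at 34.9, 53.4, 42.1, 28.1 and 31.7 in Tie2-Ezh2-KO, and at 33.4, 48.3, 44.4, 35.3 and 42.9 in the libraries labelled Vav-Ezh2-KO. The highest and the lowest of the 15 values were both in Tie2-Ezh2-KO. The log2 difference from WT was -0.03 (95% CI -0.36 to 0.31, limma adjusted p = 0.985) in Tie2-Ezh2-KO and 0.10 (95% CI -0.15 to 0.34, limma adjusted p = 0.851) in Vav-Ezh2-KO.

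By level, the order in WT was *Cdkn2d* (89.1 ± 12.6 RPKM), *Cdkn3* (37.9 ± 3.50), *Cdkn1a* (12.9 ± 5.92), *Cdkn2c* (0.639 ± 0.352), *Cdkn1b* (0.452 ± 0.570), and *Cdkn2a* and *Cdkn2b*, both at 0 (SD, n = 5). The ranges of the first 3 did not overlap in WT, nor did those of *Cdkn1a* and *Cdkn2c*, and *Cdkn2c* and *Cdkn1b* did not differ beyond their spread. In these WT libraries *Cdkn2d* was above 91.8% of all genes of the table and *Cdkn1b* above 37.9%. Without Tie2-Ezh2-WT replicate 4, the mean of *Cdkn1b* in WT was 0.205 RPKM, above 32.6% of all genes. In Tie2-Ezh2-KO the range of *Cdkn1a* (12.6 to 29.9 RPKM) met that of *Cdkn3* (28.1 to 53.4), and *Cdkn2a* (0.251 ± 0.221) and *Cdkn1b* (0.1995 ± 0.122) did not differ beyond their spread. The order in Vav-Ezh2-KO was as in WT.

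Over the 15 libraries, *Cdkn2d* and *Cdkn3* had the highest Pearson r of log2(RPKM + 0.2) among the 21 pairs of members (0.814), and libraries share depth, RNA quality and group, so this is a description. Among 9886 genes with a mean above 1 RPKM, those most like *Cdkn2d* were *Ftl1* (r = 0.926), *Erh* (0.920) and *Etfb* (0.912). Those most like *Cdkn3* were *Cetn2* (r = 0.913), *Trappc4* (0.899) and *9430016H08Rik* (0.896), and those most like *Cdkn1a* were *Tctex1d2* (r = 0.824), *Gpn2* (0.821) and *Akr7a5* (0.808). The other 4 members had a median under 50 reads and were not given such genes.

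A further gene of the Cip/Kip family is *Cdkn1c*, which encodes p57 and lies in an imprinted locus. It was at 9.15 ± 2.45 RPKM in Tie2-Ezh2-KO, 2.30 ± 1.55 in WT and 0.910 ± 0.487 in Vav-Ezh2-KO (SD, n = 5), all 5 Tie2-Ezh2-KO libraries were above all others, and the log2 difference from WT was 2.14 (SE 0.42, limma adjusted p = 0.0115). The counts of this and the next paragraph stand against 2.73% of all genes tested. Of the 12 CDK and cyclin genes tested, 1 rose in Tie2-Ezh2-KO, the D-type cyclin *Ccnd1* (2.31 ± 0.396 against 0.728 ± 0.243 RPKM, SD, n = 5, limma adjusted p = 0.00740). The targets of the Ink4 proteins were at a mean of 769.6 RPKM (*Cdk4*) and 4.44 RPKM (*Cdk6*) in WT and at 761.8 and 2.70 RPKM in Tie2-Ezh2-KO. The WT of the crosses stood apart for *Cdk6*, at a mean of 3.04 RPKM in Tie2-Ezh2-WT and 6.54 in Vav-Ezh2-WT. Its log2 difference from WT ranged from -0.84 to -0.18 over 22 alternatives. *Ccnd3* was at 302.1 and 315.8 RPKM and *Ccnd2* at 11.4 and 16.7 RPKM in WT and Tie2-Ezh2-KO. *Ccnd2* passed in 1 of 22 alternatives, without Vav-Ezh2-WT replicate 6 (log2 difference 0.78, limma adjusted p = 0.0450).

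Among 17 tested Polycomb genes and other regulators of the Ink4 locus, *Ezh2* was the 1 that fell and *Bmi1*, a PRC1 subunit known to repress the locus, the 1 that rose in Tie2-Ezh2-KO (40.2 ± 7.64 against 11.8 ± 2.18 RPKM, SD, n = 5, limma adjusted p = 5.5e-05). Of 14 genes of the p53 branch, which ARF and *Cdkn1a* belong to, 1 rose, *Phlda3*, a p53 target that inhibits AKT (15.5 ± 5.29 against 6.65 ± 2.26 RPKM, SD, n = 5, limma adjusted p = 0.0195), with *Trp53* at 170.6 and 183.2 RPKM. Of 10 pocket protein and E2F genes, 9 genes for the turnover of Cip/Kip proteins and 13 proliferation genes, 0 passed in either direction. Of 8 tested senescence-associated genes, 1 fell, *Il6* (0.135 ± 0.168 against 1.30 ± 1.08 RPKM, SD, n = 5, limma adjusted p = 0.0221). Its WT median was 0.645 RPKM, with Tie2-Ezh2-WT replicate 10 at 3.08, and its Tie2-Ezh2-KO median 0.0577 RPKM, with replicate 13 at 0.377. *Tnf*, also of this list, passed in 4 of 22 alternatives, among them without Tie2-Ezh2-WT replicate 12 (limma adjusted p = 0.0199) or Tie2-Ezh2-KO replicate 9 (0.0371). Its mean was 9.73 RPKM in Tie2-Ezh2-WT, 30.7 in Vav-Ezh2-WT and 5.16 in Tie2-Ezh2-KO, so that the WT of the crosses stood apart.

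The calls of *Phlda3* and *Il6* were lost in 8 and 9 of 22 alternatives. The limma adjusted p of *Phlda3* was 0.0548 without Tie2-Ezh2-WT replicate 10, 0.0568 without Tie2-Ezh2-KO replicate 7, 0.0543 without 17, and 0.105 without both libraries with over 100 RPKM of visceral endoderm markers. That of *Il6* was 0.0637 without Vav-Ezh2-WT replicate 4, 0.0584, 0.0634 and 0.0599 without Tie2-Ezh2-KO replicate 7, 11 or 17, and 0.0720 without both of those libraries. Without both, that of *Ezh2* was 0.137. The log2 differences without both were -0.50 (*Ezh2*), -2.14 (*Il6*) and 1.03 (*Phlda3*). With single libraries left out they ranged from -0.56 to -0.45 (*Ezh2*), -2.27 to -1.69 (*Il6*) and 1.03 to 1.34 (*Phlda3*). Over all 22 alternatives the ranges were -0.56 to -0.39 (*Ezh2*), -3.23 to -0.92 (*Il6*) and 1.03 to 1.34 (*Phlda3*). The -0.92 of *Il6* was with a pseudocount of 1, which changes the scale. Why the calls were lost was not tested.

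Against Vav-Ezh2-KO, the genes of these lists past the threshold were *Cdkn1c*, *Ccnd1*, *Phlda3*, *Bmi1* (higher in Tie2-Ezh2-KO), *Ezh2*, *Cxcl2* and *Tnf* (lower), with limma adjusted p from 0.000227 for *Cdkn1c* to 0.0269 for *Ezh2*. These are 7 of the 91 tested genes of all lists, against 3.51% of all genes tested. In Vav-Ezh2-KO against WT, limma called 0 of the 89 tested genes of all lists, against 0.00733% of all genes tested.

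The promoters at the Ink4 locus are shown because its 2 genes had reads in Tie2-Ezh2-KO alone. RefSeq (GRCm38.p6) gives 10 starts for the 7 genes, and each sequence runs from 250 bases before to 50 after the start, 5′ to 3′ on the minus strand, with GGGCGG (the core of an Sp1 site) on either strand in capitals. The sequences are at chr4:89294570-89294869 (the start of ARF), chr4:89282143-89282442 (the start of INK4A) and chr4:89310983-89311282 (*Cdkn2b*).
*Cdkn2a*, ARF start: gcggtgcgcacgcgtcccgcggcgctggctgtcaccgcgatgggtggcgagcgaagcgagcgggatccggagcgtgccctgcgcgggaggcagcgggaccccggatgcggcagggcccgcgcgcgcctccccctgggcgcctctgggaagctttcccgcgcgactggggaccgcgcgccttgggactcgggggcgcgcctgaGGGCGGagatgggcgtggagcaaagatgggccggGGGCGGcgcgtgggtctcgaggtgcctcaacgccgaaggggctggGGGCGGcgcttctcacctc
*Cdkn2a*, INK4A start: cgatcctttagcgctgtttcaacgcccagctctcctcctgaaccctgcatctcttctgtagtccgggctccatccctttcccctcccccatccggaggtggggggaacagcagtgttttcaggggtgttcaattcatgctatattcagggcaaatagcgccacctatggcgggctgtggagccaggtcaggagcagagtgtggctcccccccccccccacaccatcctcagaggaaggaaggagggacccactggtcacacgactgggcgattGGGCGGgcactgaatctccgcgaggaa
*Cdkn2b*: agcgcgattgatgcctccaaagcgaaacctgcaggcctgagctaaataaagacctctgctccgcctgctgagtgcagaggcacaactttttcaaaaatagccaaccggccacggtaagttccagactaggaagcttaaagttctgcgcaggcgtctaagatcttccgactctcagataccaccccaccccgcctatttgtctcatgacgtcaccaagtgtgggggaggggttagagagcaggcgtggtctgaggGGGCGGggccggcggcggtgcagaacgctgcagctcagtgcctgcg

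The ARF start held 45 CpG and 3 GGGCGG, the INK4A start 12 CpG and 1 GGGCGG, and the *Cdkn2b* start 18 CpG and 1 GGGCGG, against a median of 7 CpG over 32851 promoters. Of the 10 starts of CDK inhibitors, 8 held GGGCGG, which 35.7% of all promoters hold, and the starts without it were 1 of *Cdkn2c* and 1 of *Cdkn1a*. The motifs of the cell cycle element, TTTGAA and TTTAAA, were at 2 starts (*Cdkn2b*, *Cdkn3*) and 1 start (*Cdkn1b*), against 17.9% and 13.2% of all promoters. The E2F forms TTTCGCGC and TTTGGCGC (0.323% and 0.514% of all promoters) and the TATA box TATAAA (13.6%) were at 0 of the 10, and the E-box CACGTG (7.15%) was at 1, of *Cdkn2c*. Both strands were searched, 0 matches overlapped a match of another motif, and a match is a description of these windows only.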

How the data were processed

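Each library came from EMPs of 1 E10.5 YS, 500 cells per the labels but fewer per the study's methods, made with SMARTer cDNA (16 PCR cycles) and read as 75 bp single ends. Per the submitters' processing notes, the authors aligned reads to GRCm38/mm10 with TopHat2 2.0.13 and counted them per gene with featureCounts, and they deposited linear RPKM values. RPKM corrects for depth and gene length, not for composition. Reads were recovered as whole multiples of the smallest step, each library total resting on 52 or more single-exon genes, and made up no less than 99.998% of it.

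Groups came from the sample labels. Differences were fitted with limma (version 3.58.1, R 4.3.3, eBayes with trend) to log2(RPKM + 0.2). Genes had to exceed 0.2 RPKM in 1 or more of the libraries fitted. Benjamini-Hochberg adjustment ran over all of these genes, and the threshold was 0.05. The fit was checked on simulated data, with changes larger than those of the members and in genes of higher level. That check therefore does not cover *Cdkn2a*, *Cdkn2b*, *Cdkn2c* or *Cdkn1b*. Single genes were also tested with exact permutations in Python 3.11.15 (numpy 2.4.6, pandas 2.3.3). Folds against groups at 0 used a floor of 3 reads over the group. The 7 members, the gene lists and the marker lists were chosen with earlier results of these data known. Other genes were named by rule: list genes past the threshold or of set interest, the nearest gene on each side of a member, and the 3 genes with the highest r for members with a median of at least 50 reads. Alternatives were pseudocounts of 1 and 0.05, no filter and a filter of 1 RPKM, no trend, quantile normalization, scaling to 1 median, weights per library, all 15 libraries fitted at once, limma-voom, the WT of the same cross, each library left out, and 2 libraries left out together. The last, and all alternatives for genes other than the members and for the difference between the knockout effects, were chosen after the data were seen. The lineage antigens of the sort are not reported here.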

Additional observations from a re-analysis of the deposited data

Results flagged for a closer look

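In groups of 5 libraries, 4 of 51 combinations of a gene and a group held a library whose gap to its nearest neighbor was over 0.71 of the range of the group, and chance gives about 1 in 20 groups.

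*Cdkn2b* was at 0.360 RPKM in Tie2-Ezh2-KO replicate 7 and at 0 to 0.0535 RPKM in the other 4 libraries of that group. *Cdkn1b* was at 1.44 RPKM in Tie2-Ezh2-WT replicate 4 and at 0.0811 to 0.447 RPKM in the other 4 WT libraries. *Bmi1* was at 15.6 RPKM in the same Tie2-Ezh2-WT replicate 4 and at 10.3 to 11.5 RPKM in the other 4 WT libraries, all below the 30.5 RPKM of the lowest Tie2-Ezh2-KO library. *Ccnd1* was at 1.35 RPKM in the library labelled Vav-Ezh2-KO replicate 26 and at 0.156 to 0.453 RPKM in the other 4.

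Tie2-Ezh2-WT replicate 4 and Tie2-Ezh2-KO replicate 7 were also the libraries in which visceral endoderm markers summed to 117.9 and 169.2 RPKM, and the part of these cells in the values was not tested. *Cdkn2b* had 3 reads in Tie2-Ezh2-KO without replicate 7, and *Cdkn2a* had 16.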

How the results depend on the processing

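The labels give no pairs of libraries and assign no library to an experiment, so no paired analysis was made and batches could not be checked. *Cdkn2a* and *Cdkn2b* had 0 reads in Vav-Ezh2-KO and WT, so no alternative gave a value for them there, and *Cdkn2b* gave none where it failed a filter.

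In Tie2-Ezh2-KO against WT, the 386 genes past the threshold became 187 with the WT of the same cross only. They became 217 without both libraries with over 100 RPKM of visceral endoderm markers, and 262 to 438 with single libraries left out. All these fits held fewer libraries, and the part of this in the counts was not tested. *Cdkn2a* passed with a pseudocount of 0.05 (2.28) and with all 15 libraries in 1 fit (1.04), and the cause was not tested. *Cdkn2c* and *Cdkn1a* kept their direction in all 22 alternatives. *Cdkn2a* and *Cdkn2b*, with 0 reads in WT, could not turn, so theirs is no sign of stability.

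Quantile normalization moved the median of all genes by -0.04, and a common median moved it by 0.02. The sign of *Cdkn2d* turned with the former (-0.00378) and that of *Cdk4* with the latter (0.0082). Whether these shifts turned them was not tested. The sign of *Cdkn2d* also turned with array weights (-0.10), limma-voom (-0.0234), the WT of the same cross (-0.0142) and without both libraries with those markers (-0.0434), that of *Cdkn1b* without both libraries (0.10), and that of *Cxcl2* with the WT of the same cross (0.0797), and the cause was not tested. With single libraries left out, the difference ranged from -0.0930 to 0.0954 for *Cdkn2d*, -0.63 to 0.0094 for *Cdkn1b*, -0.16 to 0.0711 for *Cdkn3*, -0.0412 to 0.0147 for *Cdk4* and -0.0106 to 0.16 for *Ccnd3*.

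In Vav-Ezh2-KO against WT, 1 gene passed, 0 with limma-voom, 2 with the WT of the same cross and 1 to 2 with single libraries left out. *Cdkn1a* was at -0.14 and *Cdkn1b* at 0.22 with the WT of the same cross, and with single libraries left out *Cdkn2c* ranged from -0.37 to 0.0402 and *Cdkn1b* from -0.57 to 0.0647. Between the knockouts, 495 genes became 765 with array weights and 320 (without Vav-Ezh2-KO replicate 28) to 969 (without Tie2-Ezh2-KO replicate 9), and *Cdkn1a* ranged from -0.11 to 0.24 and *Cdkn1b* from -0.23 to 0.0655. The 26 genes that differed between the knockout effects became 16 with no filter or a common median, 12 with a filter of 1 RPKM or quantile normalization, 78 with array weights, 2 with limma-voom, 9 without both libraries with those markers and 8 to 32 with single libraries left out, where *Cdkn2d* ranged from -0.37 to 0.0413 and *Cdkn3* from -0.36 to 0.0034. The causes were not tested.

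Reads limit the low members: *Cdkn2a* and *Cdkn2b* rest on 23 and 11 reads, and a group at 0 reads allows up to 3.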
